A study of Drosophila melanogaster with 2 samples.

Results

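The regions described here are the Huckebein peaks on chromosome arm 3R of Drosophila melanogaster. They are all entries that the authors' peak list places on 3R, 373 of its 1623 peaks (23.0%), and no score or width was used to choose them. The only entry on the neighbouring heterochromatic sequence 3RHet, at 20540 to 20992 with a score of 138.57 and a width of 453 bp, falls outside that choice. The list comes from chromatin immunoprecipitation followed by sequencing (ChIP-seq) on untreated embryos aged 8 to 16 h, of the iso1 strain (y; bw cn sp) or of transgenic flies, as the labels name both, with the antibody KW3-hkb-D1. Its single sample carries the replicate numbers 1 and 2 in its title, and the input chromatin from embryos of the same age has 1 sample, whose values were not used here. The embryos were taken whole, so the cell type in which a region was bound is not given by these data.

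Huckebein is a zinc-finger transcription factor of the Sp/KLF kind, and in the early embryo it is one of the terminal gap gene products, which act at the poles downstream of the torso signal. There it is known for setting limits to the mesoderm and for a part in forming the gut endoderm, largely as a repressor, and later it acts in salivary gland shape and in some neuroblasts. Its own gene, hkb (NCBI Gene 40549, Dmel_CG9768), is protein coding and lies on 3R. In ChIP-seq a peak is a stretch where immunoprecipitated fragments pile up over background, so a peak marks where the factor, or something linked to it by formaldehyde, touched the DNA in some of the cells. A peak alone does not tell which gene it acts on, and no gene was assigned to a peak here, because annotation of the files' genome build was not used.

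All positions are 1-based on the build BDGP5, and distances between peaks run from midpoint to midpoint. The score is the value that the authors' peak caller, MACS, gave each peak. It ranks peaks within the list, the sources used here do not state its unit, and no listed peak scores under 50. As there is 1 list, no value has a replicate error, the read depth behind a peak is unknown, and no difference between arms was tested. Ranges in brackets after a share are exact (Clopper-Pearson) 95% binomial intervals. They cover counting only and treat peaks as independent, which neighbouring peaks are not.

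Along 3R, Huckebein peaks ran nearly from end to end of the sequence and alternated between fuller and emptier segments. The first peak lay at 7971 to 8352 and the last at 27815334 to 27815823. Over the 27.8 Mb between them the density was 13.4 peaks per Mb, against 10.5 on 2L, 12.05 on 3L and 17.6 on X. The peaks covered 0.972% of that stretch of 3R, against 0.739% on 2L, 0.848% on 3L and 1.21% on X. In density and cover 3R was thus above both other autosomal arms compared and below X.

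Cut into 5 equal segments of 5.56 Mb, 3R held 85, 52, 95, 49 and 92 peaks. The first, the third and the last segment had 272 peaks between them, whereas the other two had fewer, 52 and 49. The density was 17.1 peaks per Mb in the third segment and 8.81 in the fourth. High scores were also unevenly placed. Peaks scoring 200 or more numbered 15, 13, 29, 5 and 22 along the segments, which is 30.5% of the peaks of the third segment and 10.2% of those of the fourth. The fourth segment, from 16692611 to 22254095, held 13.1% of the peaks and 0 of the 19 scoring 500 or more, and its highest score was 388.29. On 3L the second segment likewise held 0 of 12 such peaks, while each segment of 2L and X held at least 1. The second segment of 3R had few peaks but not low ones. It had a median score of 121.63 and a median width of 769 bp, the highest medians of the 5 segments. On 2L, where the same cut gave 57, 70, 46, 28 and 33 peaks, the counts were lower in the last 2 segments, and on X they ended with the fullest, at 79, 66, 75, 54 and 103. Arm 3L had 77, 45, 59, 40 and 59. The counts of 3L and X thus fell and rose in the same order as those of 3R, so the alternation was not particular to 3R.

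At the scale of 1 Mb, the 27 complete bins of 3R held 13.5 ± 5.29 peaks (mean and SD over bins), between 3 and 22. The variance of the count was 2.07 times its mean, against 4.91 on 2L, 2.35 on 3L and 4.57 on X, so with these bins the counts of 3R were the most even of the arms compared. With bins shifted by 500 kb the value of 3R was 2.31, close to that of 3L, and the other arms were not computed with shifted bins. The fullest bins were 13000001 to 14000000 and 25000001 to 26000000, with 22 peaks each. After them came 2000001 to 3000000 with 21 peaks, 14000001 to 15000000 with 20 and 1000001 to 2000000 with 19. The emptiest were 21000001 to 22000000 with 3 peaks and 19000001 to 20000000 with 5. The bins starting at 6000001 and at 10000001 had 6 each, and those starting at 4000001 and at 9000001 tied at 8. Full bins were not the high-scoring ones in general: across the 27 bins the number of peaks and their median score had a Spearman's rho of -0.22, given as a description of bins that share 1 list.

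**Figure D1:**
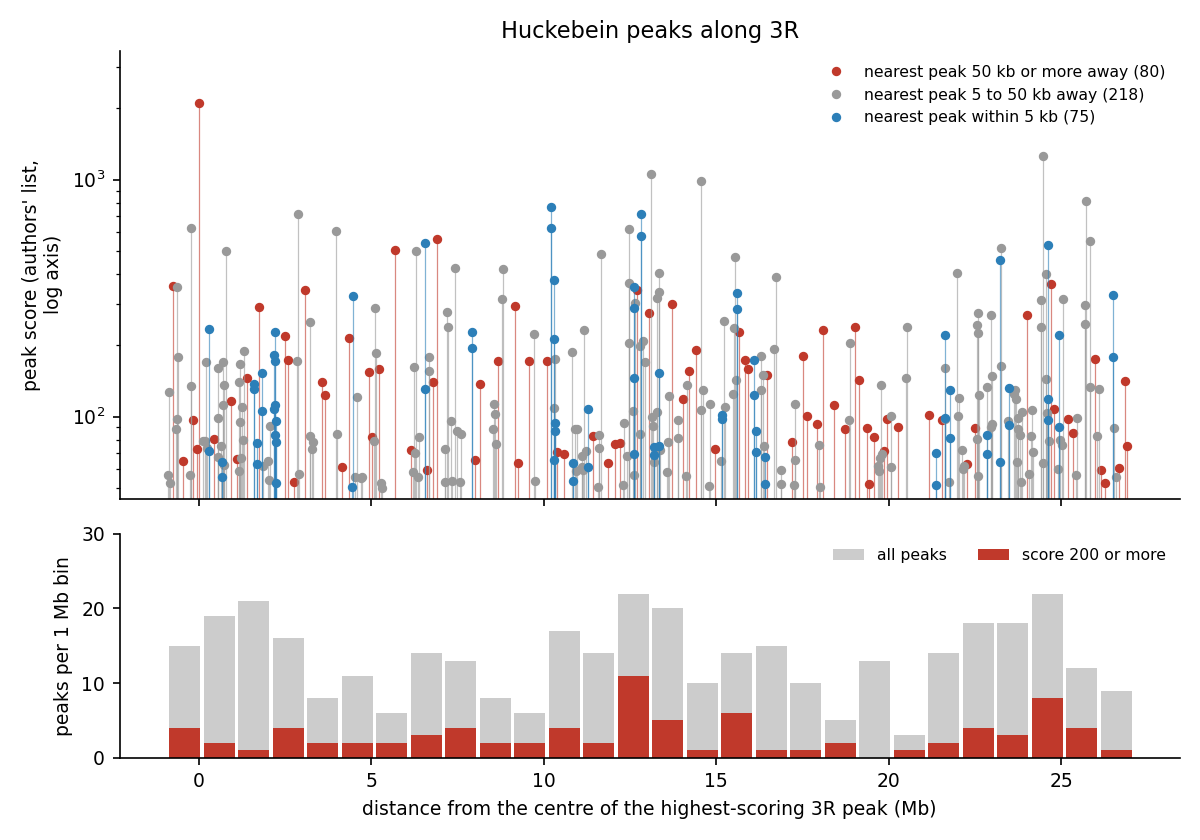
The upper panel shows each of the 373 peaks on 3R by its score (log axis) and its distance in Mb from the centre of the highest-scoring peak, coloured by the distance to its nearest peak; the lower panel shows the number of peaks per 1 Mb bin in grey and of those scoring 200 or more in red, the last bin being incomplete. The highest peak, at 2102.67, stands near the left end, and the bin with 11 peaks scoring 200 or more lies about midway, with a stretch of low scores to the right of the middle.

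Bins with similar numbers of peaks could differ in score. The bin from 13000001 to 14000000 held 11 of its 22 peaks at 200 or more, with a median score of 201.24, and 3 of them were at 500 or more. One of its runs began with 13369972 to 13370784 at a score of 366.93, followed by 13384980 to 13385877 at 619.25 and 13393227 to 13394036 at 204.29. Another high pair in this bin, at 13716536 to 13717278 and 13719810 to 13720681, scored 580.34 and 718.37. The bin from 2000001 to 3000000, with 21 peaks, had 1 peak at 200 or more and a median score of 95. Its peaks were also narrow, at 518 bp in the median, where the whole arm had 680 bp. The bin from 20000001 to 21000000 held 13 peaks and none at 200 or more, the highest being 142.19. From 20 to 22 Mb, 16 peaks included 0 with a neighbour within 5 kb and 7 with none within 50 kb.

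Long stretches of 3R carried no peak. The longest, 21426521 to 22082837, spanned 656 kb. The next were 6594841 to 7056594 with 462 kb, 6225083 to 6593988 with 369 kb, 9072044 to 9437624 with 366 kb and 9729014 to 10085994 with 357 kb. Of the 10 longest, 8 lay between 4 and 11 Mb. Stretches of 200 kb or more without a peak numbered 34 on 3R and made up 34.3% of it, against 48.9% of 2L, 44.3% of 3L and 34.6% of X. By this measure 3R was close to X and below the other autosomal arms compared.

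Isolated peaks, some of them high-scoring, were also present on the arm, as on the others compared. A peak was called isolated when no other lay within 50 kb. On 3R, 80 peaks were isolated (21.4%, 17.4 to 26.0%), against 64 on 2L (27.4%, 21.7 to 33.5%), 67 on 3L (23.9%, 19.1 to 29.4%) and 54 on X (14.3%, 10.9 to 18.3%). The interval of 3R overlaps those of 2L, 3L and X. The isolated peaks of 3R had scores from 52.11 to 2102.67, with a median of 110.08 and a median width of 693 bp. The 75 peaks with a neighbour within 5 kb had medians of 108.07 and 680 bp, and the 218 in between had 98.45 and 675.5 bp. Isolation thus went with neither higher nor lower scores on 3R in these medians. Across all 373 peaks the distance to the nearest peak and the score had a Spearman's rho of -0.08. On X the 134 close peaks had a median score of 132.38 and the 54 isolated ones 96.26. The same medians were 102.12 and 98.65 on 3L, and 107.48 and 117.06 on 2L.

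Of the 80 isolated peaks of 3R, 17 scored 200 or more (21.25%), close to the 22.5% among all 3R peaks. Of the same 80, 3 scored 500 or more, against 19 of all 373, and 37 scored under 100. Among all 373, 189 (50.7%) scored 100 or more and the rest under 100, so this share was close to that of the arm. The highest peak of the whole list was isolated, at 909979 to 911774 with a score of 2102.67 and a width of 1796 bp. Its nearest peak, 846884 to 847558, lay 63.7 kb to the left and scored 72.83, and the next one to the right was 133 kb away. The second isolated peak by score, 7821086 to 7821882, scored 563.54 over 797 bp and had 118 kb free on its left and 228 kb on its right.

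The third, 6593989 to 6594840, had the most distant nearest neighbour of any 3R peak. It scored 503.28 over 852 bp, with 370 kb to the peak on its left and 463 kb to the one on its right, so that it stood alone in 833 kb. It also separates 2 of the 3 longest empty stretches of the arm. The peak on its left, 6223407 to 6225082, had the lowest score on 3R, 50.02, although it was 1676 bp wide and ranked 8 of 373 by width.

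The other 7 of the 10 highest isolated peaks scored between 290.39 and 361.08. These were 25617502 to 25618824 with 361.08, 171433 to 172307 with 354.22, 3992330 to 3993275 with 343.9 and 13605778 to 13606494 with 341.84. Then came 14632131 to 14633018 with 299.98, 10085995 to 10086774 with 292.32 and 2667038 to 2667846 with 290.39. Of these, 3992330 to 3993275 and 14632131 to 14633018 had no other peak within 100 kb, their nearest peaks being 142.3 and 100.96 kb away. The peak at 10085995 to 10086774 lay 358 kb from the one on its left and 62.3 kb from the one on its right. Isolated peaks scoring 200 or more made up 4.56% of 3R peaks (2.68 to 7.20%), against 7.69% on 2L (18 peaks), 5% on 3L (14 peaks) and 3.18% on X (12 peaks).

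Most of the highest peaks on 3R, like most peaks of the arm, were not isolated. Among all 373 peaks of 3R, 32.2% had another peak within 10 kb, 20.1% had one within 5 kb and 21.4% were isolated. Of the 12 highest, 8 had another peak within 10 kb, 3 had one within 5 kb, and 1 was isolated, the peak at 909979 to 911774. After that peak came 25382435 to 25383609, with a score of 1261.96 and a width of 1175 bp. Its nearest peak, 7.04 kb away, scored 63.46. The peak at 14020660 to 14022291 scored 1058.02 over 1632 bp, and its nearest, 17.1 kb away, scored 99.66. The peak at 15470802 to 15471855 scored 987.21 over 1054 bp, and its nearest, 9.72 kb away, scored 106.56. These peaks, like the highest of all, stood beside neighbours of far lower score. That follows largely from picking the highest peaks, as the median score of all 3R peaks was 100.99.

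Further down, high peaks with a high neighbour appeared. The peak at 26618613 to 26620223 scored 810.85 over 1611 bp and had a neighbour of 245.89 at 7.34 kb. The peak at 13384980 to 13385877, scoring 619.25, had one of 204.29 at 8.20 kb. The pair at 11130695 to 11131696 and 11132025 to 11132941 scored 624.29 and 764.45, with midpoints 1.29 kb apart and 328 bp between the facing edges. Together with 13716536 to 13717278 and 13719810 to 13720681, whose midpoints are 3.34 kb apart, these are the only pairs of peaks within 5 kb on 3R in which both peaks scored 500 or more. On 2L, 3L and X there were 0 such pairs. With a limit of 200, both peaks reached it in 5 of 41 pairs on 3R (12.2%) and 11 of 80 on X (13.75%). On 2L it was 0 of 31 and on 3L 1 of 44, so pairs of high peaks were not particular to 3R.

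The remaining peaks of the 12 had lower neighbours. The peak at 3785543 to 3786474 scored 717.63 with its nearest peak, of 172.07, at 29.9 kb. The peak at 694111 to 695131 scored 626.85, and its nearest, 677974 to 679860 at 15.7 kb, scored 135.18 although it was wider, at 1887 bp against 1021 bp. The peak at 4897979 to 4898833 scored 606.1, with a neighbour of 84.59 at 8.03 kb to its right and 317 kb without a midpoint to its left. In all, the nearest peaks of the 12 highest scored under 110 in 5 cases and 200 or more in 5, the members of the pair at 11130695 to 11132941 counting as each other's neighbour. The median score of all 3R peaks was 100.99, so most of them also scored under 110, and 22.5% scored 200 or more. The limit of 110 was set after the values had been seen.

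Close neighbours on 3R were mostly pairs. Another peak lay within 5 kb of 75 of 373 peaks (20.1%, 16.2 to 24.5%), against 57 of 234 on 2L (24.4%, 19.0 to 30.4%), 83 of 280 on 3L (29.6%, 24.4 to 35.4%) and 134 of 377 on X (35.5%, 30.7 to 40.6%). The intervals of 3R and 2L overlap, and so do those of 3R and 3L. Within 2 kb the shares were 8.04% on 3R, 11.97% on 2L, 15% on 3L and 19.9% on X. The median distance to the nearest peak was 17.6 kb on 3R, 19.98 kb on 2L, 15.5 kb on 3L and 8.29 kb on X. Divided by the mean spacing of its arm, it was 0.24 on 3R, 0.21 on 2L, 0.19 on 3L and 0.15 on X.

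The order of the arms in the share within 5 kb changed with the score limit. Among peaks scoring 100 or more the shares were 15.3% on 3R, 16.4% on 2L, 14.9% on 3L and 29.2% on X, so 3R was then no longer the lowest. With peaks less than 1000 bp apart merged, they were 14.4% on 3R, 15.4% on 2L, 18.3% on 3L and 22.5% on X.

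**Figure D2:**
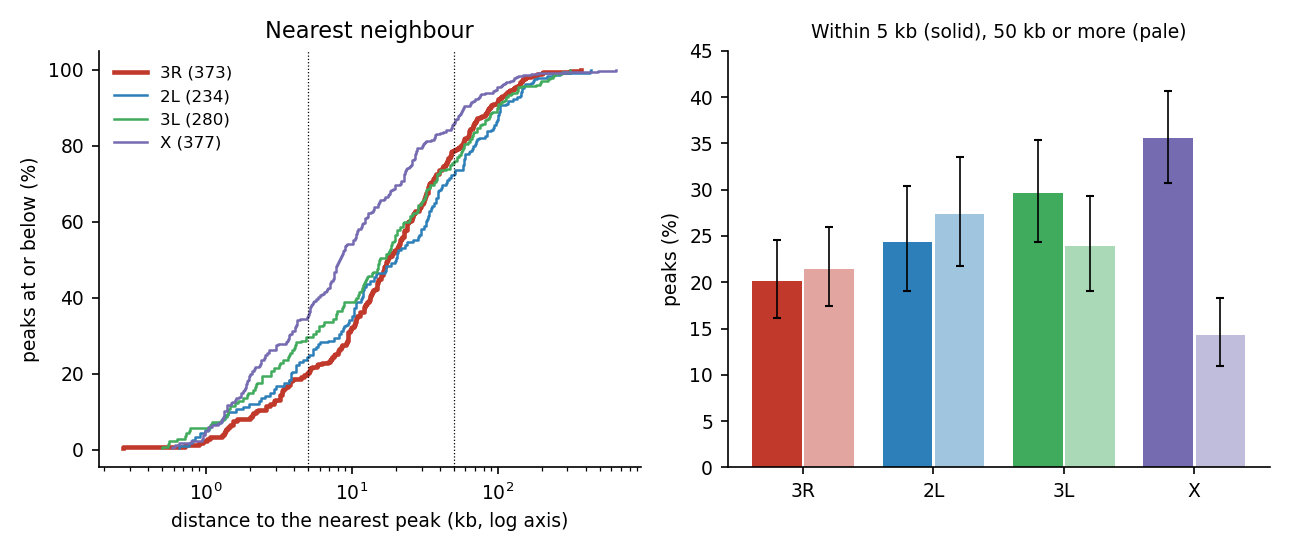
The left panel shows, for each arm, the cumulative share of peaks (%) by the distance to the nearest peak (kb, log axis), with dotted lines at 5 and 50 kb; the right panel shows which part of the peaks (%) had another within 5 kb (solid bars) and with none within 50 kb (pale bars), with exact 95% binomial intervals. The 3R curve is the lowest at 5 kb, at 20.1%, and near 2L and 3L at 50 kb, while the X curve lies above the others there.

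Joining neighbours at most 5 kb apart gave 34 groups on 3R. Of these, 30 were pairs, 2 had 3 peaks, 1 had 4 and 1 had 5. X had 54 groups, with 14 of 3 or more peaks and the largest of 8, whereas 2L and 3L had 26 and 39 groups, with 4 of 3 or more peaks each. The group of 5 on 3R, from 3126346 to 3138936, spanned 12.6 kb with scores of 226.54, 83.72, 77.89, 95.81 and 52.5. It was led by its leftmost peak, and the other members were all under 100.

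The group of 4, from 13515505 to 13525475, spanned 9.97 kb with scores of 69.67, 146.05, 353.86 and 287.3. Its last peak, 13523914 to 13525475, was 1562 bp wide and one of 13 peaks on the arm of 1500 bp or more. The group of 3 from 11208876 to 11214380 had scores of 65.87, 213.51 and 376.15, each higher than the one to its left, with widths of 328, 613 and 804 bp. The group of 3 from 25517588 to 25522083 had 96.38, 119.22 and 530.42, again with its highest peak at the right end. It lay in the full bin that starts at 25000001, 26.1 kb from the next peak on its right.

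The group of 5 was part of the densest 100 kb of the arm, where 9 peaks lay within 38.04 kb. From left to right the 9 scored 108.15, 182.23, 171.41, 111.77, 226.54, 83.72, 77.89, 95.81 and 52.5, so 1 of them reached 200 and 4 stayed under 100. Their median score was 108.15, against 100.99 for all peaks of 3R. All were narrower than the median of the arm, at 421 to 588 bp. The stretch was set apart on both sides, by 138 kb on the left and 260 kb on the right. The next densest were 8 peaks from 11208876 to 11301045, with scores up to 376.15, and 7 peaks in each of 13501766 to 13542710, 25457883 to 25548028 and 14180474 to 14273160. The highest scores in these 3 were 353.86, 530.42 and 402.01. These stretches, taken so that they do not overlap, held none of the 12 highest peaks. The 7 peaks from 11130695 to 11225692, which include the pair of 624.29 and 764.45, share peaks with the stretch of 8 and were therefore not counted among them. The stretches were chosen after their values had been seen.

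**Figure D3:**
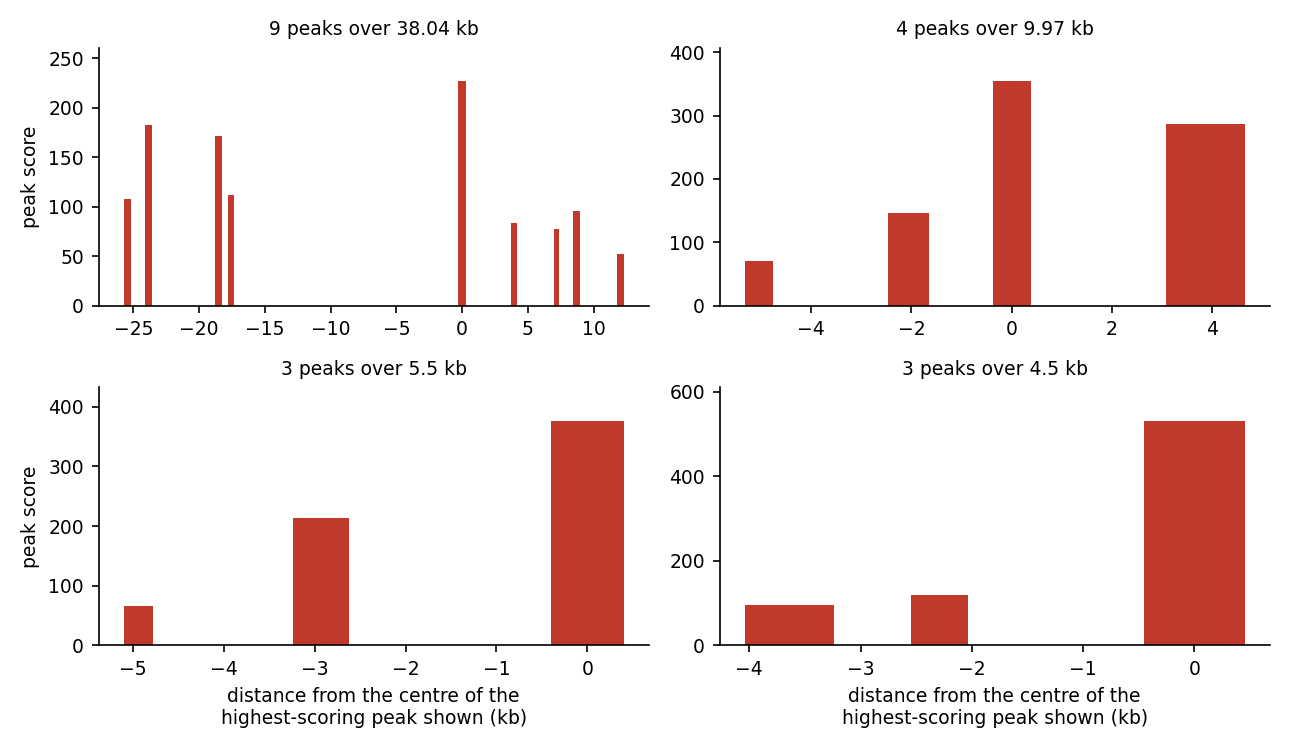
Each panel shows one cluster of 3R peaks, with peak score on the vertical axis (from 0) and the distance in kb from the centre of its highest-scoring peak on the horizontal axis; each bar is a peak drawn at its true width. The 9 peaks over 38.04 kb are narrow, with scores up to 226.54 and a median of 108.15. The highest peak of both groups of 3 lies at the right end, at 376.15 and 530.42.

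Neighbouring peaks on 3R often had scores within 2-fold of each other. How often peaks that are not neighbours come within 2-fold was not computed. Among the 41 neighbouring pairs at most 5 kb apart, the higher score was at the median 1.44 times the lower on 3R, against 1.77 times in 31 pairs on 2L, 2.16 times in 44 on 3L and 2.05 times in 80 on X. The scores were within 2-fold in 29 of the 41 pairs of 3R (70.7%, 54.5 to 83.9%), against 58.1% on 2L (39.1 to 75.5%), 47.7% on 3L (32.5 to 63.3%) and 48.8% on X (37.4 to 60.2%). The intervals of all 4 overlap. At a distance of at most 2 kb, 14 of 15 pairs of 3R were within 2-fold, against 9 of 15 on 2L, 9 of 21 on 3L and 19 of 40 on X. At a distance of at most 10 kb the shares were 60% on 3R, 57.4% on 2L, 50.8% on 3L and 46.1% on X. With peaks less than 1000 bp apart merged, they were 62.1% on 3R, 61.1% on 2L, 52% on 3L and 51.1% on X, so 3R and 2L were close in both. The rank correlation of the scores within pairs was 0.42 on 3R, -0.0008 on 2L, -0.13 on 3L and 0.02 on X. Pairs of 1 group share a peak, and this comparison was chosen after the values had been seen.

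Among the 41 pairs of 3R, both peaks scored 200 or more in 5, one did in 12 and neither did in 24. The most unequal pair was 24146358 to 24146965 with 64.17 and 24149326 to 24150427 with 457.29, a ratio of 7.13. Next came 5364519 to 5365016 with 50.62 and 5365504 to 5366933 with 323.74, only 487 bp apart at their edges. The most equal was 16067672 to 16068108 with 97.25 and 16069757 to 16070204 with 101.28, a ratio of 1.04. The closest pair on the arm, 22269062 to 22269364 and 22269368 to 22269600, was separated by 3 bp. It scored 70.04 and 51.29 and included the narrowest peak of the arm.

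**Figure D4:**
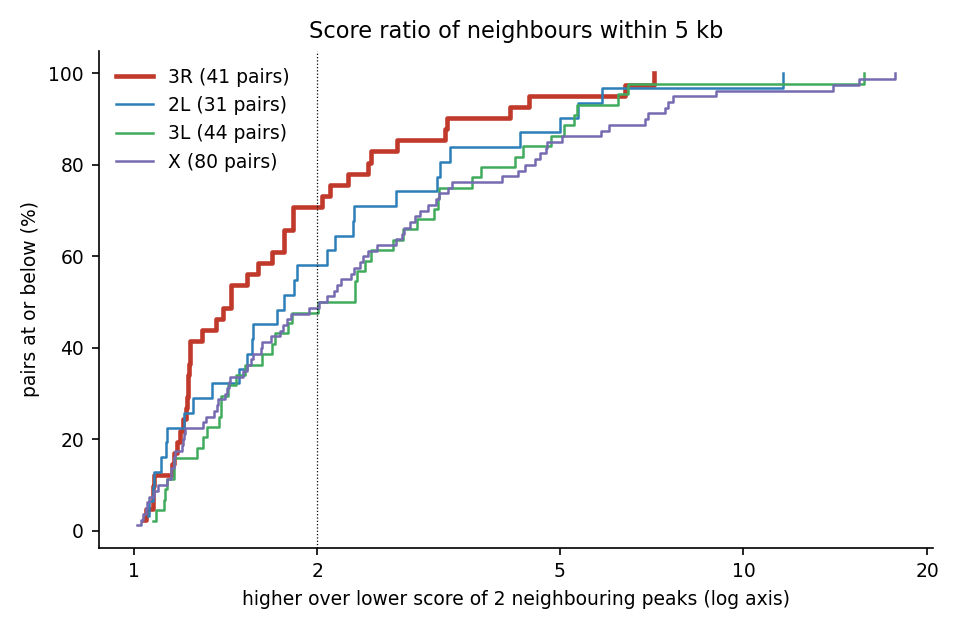
The cumulative share of neighbouring pairs (%) is plotted against the ratio of the higher to the lower score (log axis) for pairs at most 5 kb apart on 3R, 2L, 3L and X, with a dotted line at a ratio of 2. At that line the 3R curve stands at 70.7%, above 2L at 58.1%, X at 48.8% and 3L at 47.7%.

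In width, the peaks of 3R ran from 233 to 2409 bp with a median of 680 bp (order-statistic 95% interval 638 to 714). The medians were 630 bp on 2L (598 to 676), 648 bp on 3L (622 to 683) and 614 bp on X (586 to 647), so the intervals of 3R overlap those of every arm compared. The lower and upper quartiles were 511 and 855 bp on 3R, 506 and 811 on 2L, 521.3 and 828 on 3L and 496 and 818 on X. The score had a median of 100.99 on 3R (95.69 to 112.13), against 103.7 on 2L, 106.8 on 3L and 114.55 on X. Peaks scoring 500 or more made up 5.09% on 3R (19 peaks), 3.85% on 2L (9), 4.29% on 3L (12) and 4.77% on X (18). In these summaries 3R differed little from the other autosomal arms.

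Width followed score more loosely on 3R than on the other arms compared. Spearman's rho across peaks was 0.52 on 3R, 0.57 on 2L, 0.59 on 3L and 0.72 on X, given as descriptions of 373, 234, 280 and 377 peaks of the same list. Among peaks scoring 100 or more, the order of the autosomal arms changed, with 0.50 on 3R, 0.47 on 2L, 0.51 on 3L and 0.62 on X. On 3R the median width was 519 bp at scores of 50 to 75 and 573 bp at 75 to 100. It was 685 bp at 100 to 200, 813 bp at 200 to 500 and 934 bp at 500 or more. In the highest class 3R peaks were narrower than those of 2L (1161 bp), 3L (1105 bp) and X (1165 bp) at the median, with 19, 9, 12 and 18 peaks behind these values.

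Wide peaks on 3R covered the whole range of scores. The 13 peaks of 1500 bp or more scored from 50.02 to 2102.67, with a median of 287.3, and 4 of them scored under 200. The widest peak, 16151453 to 16153861, was 2409 bp long and scored 109.89. The peak at 24923691 to 24925879, 2189 bp long, scored 268.27 and was isolated, with its nearest peak 53.9 kb away. The peak at 7200764 to 7202892, 2129 bp long, scored 498.07, just under the limit of 500 used above. The next, 25314241 to 25316148 and 677974 to 679860, were 1908 and 1887 bp long and scored 310.65 and 135.18. Of the 12 highest-scoring peaks, 3 were among the 13 wide ones.

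Narrow peaks, in contrast, were low on 3R as on the other arms compared. On 2L, 3L and X the narrowest peaks scoring 75 or more were 325, 345 and 303 bp long. The 12 peaks under 300 bp on 3R scored from 51.29 to 82.15. The narrowest, 22269368 to 22269600, was 233 bp long with a score of 51.29. It was followed by 18167208 to 18167448 with 241 bp and 51.55, 2085798 to 2086043 with 246 bp and 58.7, and 22669321 to 22669580 with 260 bp and 52.96. The peaks at 8057866 to 8058126 and 13201052 to 13201312 tied at 261 bp, with scores of 53.21 and 51.39. The narrowest peak scoring 500 or more on 3R was 743 bp long, at 13716536 to 13717278.

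**Figure D5:**
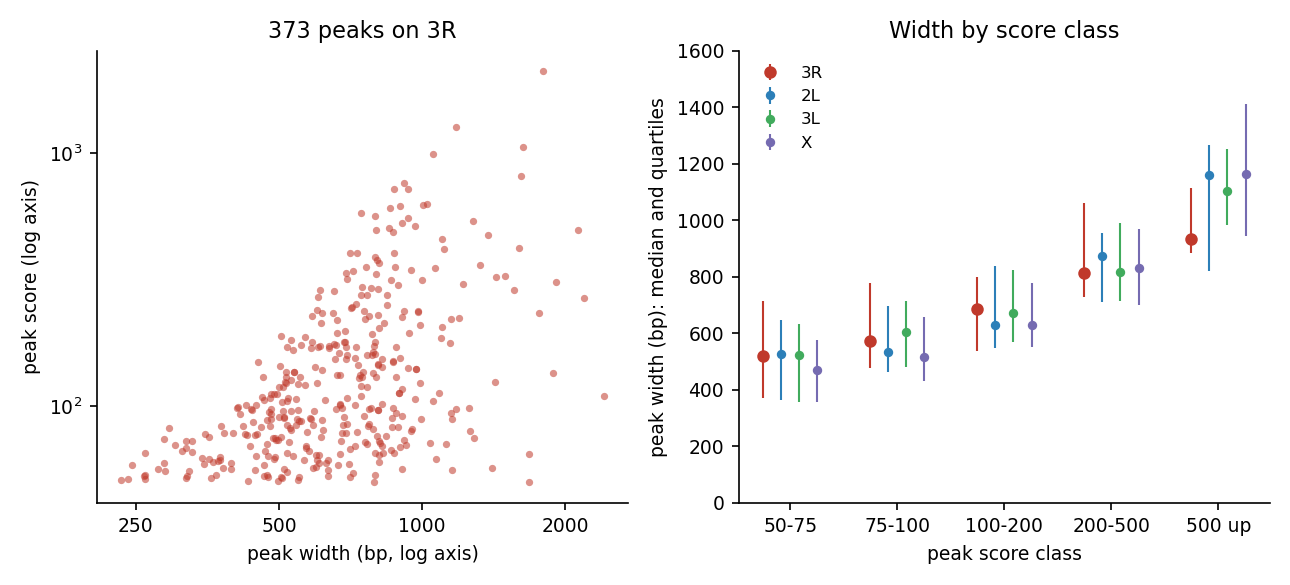
The left panel shows width (bp) against score for the 373 peaks on 3R, both on log axes; the right panel shows the median width (points) and quartiles (lines) in 5 score classes for 3R, 2L, 3L and X. On 3R the median is 519 bp in the lowest class and 934 bp in the highest, and the point of 3R in the class of 500 or more lies under those of 2L, 3L and X, while low-scoring peaks reach widths above 1500 bp.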

How the data were processed

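The authors deposited 1 peak list for the ChIP sample, with a score per peak. MACS is the peak caller, per the file headers. The submitters' processing notes name Bowtie and BDGP5. The sources used here do not state the MACS threshold, how the input was used, what was done with duplicate reads or how replicates 1 and 2 became a single list. Starts were read as 0-based and are printed 1-based; width is end minus 0-based start. Nearest distances, groups (neighbouring midpoints at most 5 kb apart), isolation (50 kb or more), 1 Mb bins by midpoint and equal segments between the first and last midpoints were computed per arm with Python 3.11.15, NumPy 2.4.6, pandas 2.3.3 and SciPy 1.17.1, and checked on a made-up arm. Arm lengths were taken from first to last peak. Assembly gaps and unmappable sequence were not removed. Arm 2R was not used in the comparisons.

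The peaks named are the 12 highest, the 5 widest and 5 narrowest, the groups of 4 or more, the 10 highest isolated peaks, the 5 longest empty stretches and the 5 fullest and emptiest bins; others were picked after their values were seen. The choice of 3R, the lists and the measures were made with earlier results of these data known. Alternatives were a score of at least 100, merging of peaks less than 1000 bp apart, other distances and other bins. No test was run, since there is 1 list. No genome of the build was at hand, so no sequence is shown.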

Additional observations from a re-analysis of the deposited data

How the results depend on the processing

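Of 32 alternative values for 10 measures of 3R, 17 stayed within their limits and 15 moved. Whether an order of the arms reversed was not part of this count. The limits were the 95% interval of the deposited value for shares and medians, and 1.5 times it for counts, the correlation and the unevenness of bins. Restricting the list to scores of at least 100 left 189 peaks, with a median width of 766 bp, a median score of 179.1, 15.3% within 5 kb of another, 14 groups, 40.2% isolated and 15.9% isolated and scoring 200 or more; fewer peaks widen the distances by construction. Merging peaks less than 1000 bp apart gave 14.4% within 5 kb. The limits set the shares directly: within 2 kb it was 8.04% of peaks, in 15 groups, and within 10 kb 32.2%. At 100 kb, 8.04% were isolated and 1.34% were isolated and scored 200 or more, and with a score of 500 at 50 kb it was 0.804%. The share of neighbouring pairs within 2-fold in score was 93.3% at 2 kb, 60% at 10 kb and 62.1% after merging. The correlation of width with score and the unevenness of bins stayed within 1.5 times under every alternative run. No paired analysis was possible because the list holds 1 ChIP sample. The read depth is unknown and limits which weak regions are listed.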
